A study of Mus musculus with 6 samples.

Results

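Heat shock proteins and chaperonins were followed across the kidneys of mice given the antimalarial drugs amodiaquine, Sulfodoxine-Pyrimethamine (SP) or both. Members were taken by gene symbol from the probes whose annotation held a single symbol: the Hspa, Hspb, Hspd, Hspe, Hsph and Hsp90 families, the Dnaja, Dnajb and Dnajc families, Cct2 to Cct8, Tcp1 and Ptges3. The symbols matched 95 of 15114 probes for 1 gene on the array. Of these, 2 carried the pseudogene Hspd1-ps3 and were set aside, which left 93 probes for 47 of 9107 genes. Known sites of action placed 30 genes (62 probes) in the cytosol or nucleus, 8 genes (15 probes) in the endoplasmic reticulum (ER) and 6 genes (11 probes) in mitochondria. Dnajc16, Dnajc25 and Dnajc27 (5 probes) were not assigned.

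All mice were male Swiss albino animals aged 8 to 10 weeks, with 4 mice in each group, and kidneys were taken 24 h after dosing. Amodiaquine was given at 120 mg/kg, SP at 300 mg/kg sulfodoxine with 15 mg/kg pyrimethamine, and the amodiaquine+SP group received all 3 drugs at those doses. Control kidney RNA came from vehicle (DMSO) mice and shared each array with treated RNA, one labelled with the dye Cy5 and the other with Cy3. The labels do not say whether a hybridisation used 1 mouse or a pool, so the spread between arrays may be technical. Each treatment has 2 files, labelled as a dye swap.

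Molecular chaperones bind unfolded protein and release it in cycles of ATP binding and hydrolysis. HSP70 proteins work with J-domain partners (the Dnaj families), which deliver clients and stimulate the ATPase, HSP90 acts late on signalling proteins, and chaperonins enclose a client in a barrel. Each compartment has its own set, and transcription of many members is raised by heat shock factor in the cytosol or by the unfolded protein response in the ER. In kidney, tubule cells carry a heavy load of secreted and membrane protein and of mitochondria, all of which pass through these machines.

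The number of independent arrays limits every comparison. The SP files were 1 scan read with 2 grid placements, since 36.9% of Cy3 and 34.4% of Cy5 values in one were also in the other, and the amodiaquine+SP files likewise shared 41.9% and 28.2%. The amodiaquine files shared 0.0911% and 0.122%, so they were separate scans, and they are taken here as the 2 arrays of the labelled dye swap. Whether each came from its own slide was not tested. The 6 files therefore held 4 distinct scans. Because both files of one SP or amodiaquine+SP scan carry opposite dye labels, which RNA was in which dye is not settled there, and those ratios are given as Cy5 over Cy3 with no treatment direction. In many of the 48 blocks of spots the reading grid was off by a row or column. A block was in register where the pattern of bright spots in each dye fitted the other treatments' arrays without a shift and the dyes' ranks within the block correlated at 0.5 or more. Such blocks numbered 16 and 21 on the amodiaquine arrays, 35 on the SP scan and 30 on the amodiaquine+SP scan. In a second reading, called alignment here, the blocks of all arrays were shifted in turn until they fitted each other, the position held by most scans was kept as the origin, and a block was used where its dyes then correlated at 0.5 or more. Alignment gave 37, 37, 40 and 44 usable blocks. Of the blocks gained, 14 of 21 and 4 of 16 on the amodiaquine arrays, 4 of 5 on the SP scan and 14 of 14 on the amodiaquine+SP scan were themselves moved, and the others were not. Kidney tubule markers had a median brightness rank of 73.0 in both readings (9 of 16 on the array, all 9 ranked after alignment), led among those in register as placed by Umod (uromodulin) at 95.6. Markers of glomerulus and endothelium had a median of 47.0 (3 genes) and those of leukocytes 49.2 (2 genes), near the median of all named genes, and after alignment 51.9 (4 genes) and 50.6 (4 genes, with Lyz2 at 69.4). The single blood marker on the array, Alas2, ranked at 23.7 and the single muscle and fat marker, Plin1, at 23.9. The part of other cell types in the members' values was not tested.

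Signal is described by the brightness rank, which is the percentile of a spot's foreground minus local background among all spots of that scan and dye. Spots at or under their background made up 23.8% to 31.9% of a scan and dye and share ranks between 12.0 and 16.0. Different spots carry different DNA, so a rank says how bright a spot was and gives no ratio of transcript levels between genes. A spot counted as above background at a deposited signal-to-noise ratio of at least 2. On the spots as placed, 79 member probes lay in register in 1 scan or more, and 25 of them, for 18 genes, were above background in some scan. After alignment, all 93 lay in register in 1 scan or more, and 45 probes for 28 genes were above background somewhere. The other 19 genes never passed that limit in either dye. Among member probes in register as placed, 27.3%, 27.3%, 23.6% and 16.7% were above background on the amodiaquine arrays, the SP scan and the amodiaquine+SP scan, beside 29.6%, 18.5%, 14.7% and 15.8% of all named probes. After alignment, these shares were 49.3%, 32.4%, 22.0% and 21.6%, beside 42.2%, 18.8%, 14.7% and 15.5%. On amodiaquine array 1, 35 aligned member probes passed in Cy3 and 15 in Cy5. Some Cy3 backgrounds there were recorded as 0, which leaves the signal-to-noise ratio unbounded, so dim spots could pass. An example was Cct2 probe 2, at a corrected Cy3 intensity of 53.

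**Figure D1:**
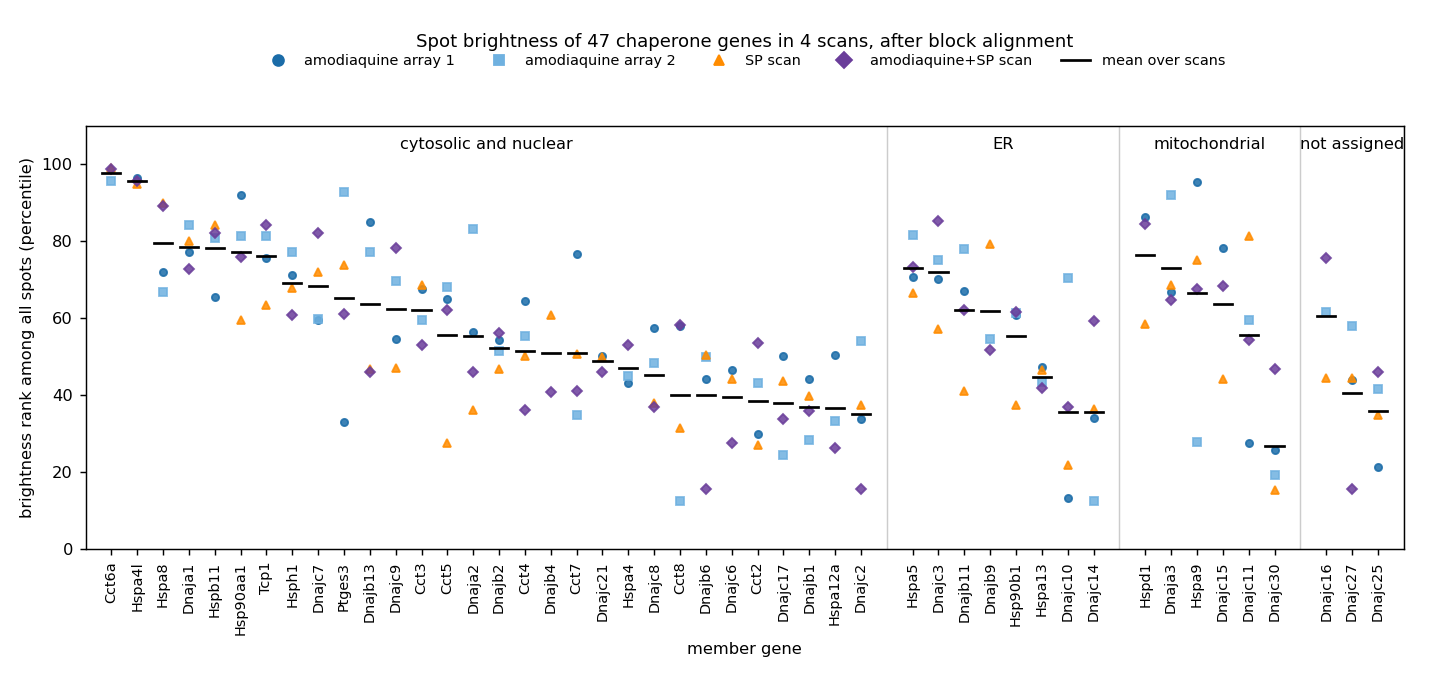
Brightness rank (percentile among all spots, mean of both dyes and of all probes of a gene) of the 47 member genes in each of the 4 scans after alignment, grouped by compartment. Coloured points are scans and black bars their mean. Cct6a and Hspa4l stand highest, at means of 97.9 and 95.7, with little spread over the 3 scans in which each was ranked. Most other genes spread widely between scans.

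As placed, the brightest cytosolic members by gene mean were Cct6a, Hspa4l, Tcp1 and Ptges3. Cct6a and Tcp1 belong to the chaperonin TRiC (also called CCT), which folds actin and tubulin. Its other subunits had lower gene means as placed: Cct4 of 51.7, Cct3 and Cct7 of 47.8, Cct5 of 42.3, Cct2 of 39.4 and Cct8 of 34.2. Those means left out most values of bright probes. Cct3 probes 6 to 8 had mean ranks after alignment of 94.3 to 96.0, and Cct5 probe 3 of 93.1. As placed, Cct3 probes 7 and 8 were in register on the SP scan alone, and the others in no scan. After alignment, the gene means were 62.2 for Cct3 and 55.7 for Cct5. Cct6a, a TRiC subunit with 1 probe, ranked at 95.7 on amodiaquine array 2, 99.1 on the SP scan and 98.9 on the amodiaquine+SP scan, a mean of 97.9 ± 1.90 (SD, n = 3 scans). Hspa4l, an HSP110-type exchange factor for HSP70, ranked at 96.4 on amodiaquine array 1, 95.0 on the SP scan and 95.7 on the amodiaquine+SP scan (95.7 ± 0.73, SD, n = 3). Both genes were bright in every scan in which their block was in register. On amodiaquine array 2, the Hspa4l block was left out because its dyes correlated at 0.371. The Hspa4l spot was dim there, with corrected intensities of 198 in Cy3 and 672 in Cy5 and signal-to-noise ratios of 0.246 and 0.154. The Cct6a spot in its left-out block on array 1 was bright (signal-to-noise ratios of 25.8 and 58.4). Tcp1, the alpha subunit of TRiC, ranked at 92.5, 94.6 and 92.0 on amodiaquine array 2, the SP scan and the amodiaquine+SP scan, all from its probe 2. After alignment, probe 1 of Tcp1 joined at a mean rank of 61.0 and the gene's mean went from 93.0 to 76.2. Ptges3 (p23), the HSP90 co-chaperone, ranked at 92.9, 98.6 and 61.1 in the same 3 scans. Its probe 1 ranked at 87.5 or higher in each dye of those scans, and the low value in the last scan came with probe 2, whose ranks there were 33.8 and 15.3.

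Hspa8, the constitutive HSP70 of the cytosol, had 6 probes and ranked at 65.0 and 66.8 on the amodiaquine arrays, 89.9 on the SP scan and 90.3 on the amodiaquine+SP scan. The lower amodiaquine values came with probe 2 on both arrays and with the Cy5 value of probe 5 (rank 13.1) on array 2. Probe 2 ranked at 12.9 and 13.9 in Cy3 and Cy5 of array 1 and 36.6 and 13.1 on array 2, against 92.5 to 95.3 on the other scans. Probe 6 ranked between 88.9 and 97.9 wherever it was in register. Hsp90aa1, the inducible cytosolic HSP90, ranked at 88.0, 77.7, 60.2 and 65.1 in the 4 scans, in the order amodiaquine arrays 1 and 2, SP and amodiaquine+SP. Its brightest probe, probe 4, lay in a block that was used only after alignment, without a move on the amodiaquine arrays, and ranked at 97.8 or higher in 7 of 8 scan and dye combinations. Hsph1, the HSP110 of the stress response, ranked at 71.3, 77.4, 67.8 and 61.1 in the same order.

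J-domain proteins were spread over the cytosolic order. Dnaja1, the class A partner of Hspa8, was in register in all 4 scans and ranked at 77.4, 84.4, 80.1 and 73.0 (78.7 ± 4.78, SD, n = 4). Hspb11, named for the small heat shock proteins and also known as an intraflagellar transport subunit, ranked at 81.0, 84.2 and 82.4 on amodiaquine array 2, SP and amodiaquine+SP. Dnajc7, a J-domain protein that also binds HSP90, was in register on the SP scan alone, at 82.6. After alignment it had values in 4 scans and a mean of 68.3 ± 10.9 (SD, n = 4). The neighbours Dnaja1, Hspa8 and Hspb11 lay within 5 percentile points of each other, closer than the SD over scans of Hspa8 (14.0). At the dim end, Dnajc2, a ribosome-bound J protein, had a mean of 22.3 ± 13.6 (SD, n = 3). Dnajb1, a classical heat-inducible partner of HSP70, had a mean of 37.2 ± 6.74 (SD, n = 4).

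Promoters of 3 ER members are shown because they hold the element through which the unfolded protein response acts. The windows are RefSeq sequence (GRCm38.p6) from 250 bases before to 50 after an annotated start site, and 39 of 47 member genes had 1 or more (53 windows). The ER stress response element was searched on both strands as CCAAT and CCACG with 9 bases of any kind between them. It was found in 3 member windows, all of ER genes (3 of 8 ER windows, 37.5%), and in 0.119% of all 32851 windows of this length. Capitals mark the matches in Hspa5 (chr2:34771840-34772139, plus strand), Hsp90b1 (chr10:86705395-86705694, minus strand) and Dnajc3 (chr14:118937682-118937981, plus strand).
Hspa5: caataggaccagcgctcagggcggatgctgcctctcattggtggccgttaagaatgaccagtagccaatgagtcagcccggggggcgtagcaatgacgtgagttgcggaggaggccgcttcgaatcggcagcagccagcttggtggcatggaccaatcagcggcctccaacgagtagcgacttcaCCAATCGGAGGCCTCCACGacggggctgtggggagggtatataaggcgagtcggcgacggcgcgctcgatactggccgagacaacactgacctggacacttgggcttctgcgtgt
Hsp90b1: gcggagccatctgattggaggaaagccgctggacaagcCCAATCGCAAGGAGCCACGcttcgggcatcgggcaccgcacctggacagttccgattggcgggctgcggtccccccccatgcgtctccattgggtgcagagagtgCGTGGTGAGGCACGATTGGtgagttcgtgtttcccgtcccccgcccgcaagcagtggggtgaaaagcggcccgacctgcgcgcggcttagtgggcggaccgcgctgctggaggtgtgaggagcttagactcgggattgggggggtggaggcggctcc
Dnajc3: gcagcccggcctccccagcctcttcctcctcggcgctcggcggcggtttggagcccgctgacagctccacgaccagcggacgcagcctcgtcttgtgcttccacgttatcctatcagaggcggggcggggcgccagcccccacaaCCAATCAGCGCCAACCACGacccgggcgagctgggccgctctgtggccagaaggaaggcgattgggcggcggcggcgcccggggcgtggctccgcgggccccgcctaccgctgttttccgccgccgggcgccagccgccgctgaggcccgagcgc
In Hspa5 the match began 65 bases before the start site and in Dnajc3 105 bases before it. Hsp90b1 held 2 matches, one on each strand, beginning 212 and 107 bases before the start. The matches describe these letters only and show no binding.

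Hspa5 (BiP), the ER HSP70 and the best known target of that response, had 3 probes. As placed it was in register on the SP scan alone, at 66.7. After alignment it ranked at 70.8 and 81.6 on the amodiaquine arrays, 66.6 on the SP scan and 73.4 on the amodiaquine+SP scan (73.1 ± 6.34, SD, n = 4). These values lay within the range of Dnajc3 (P58IPK), a J-domain partner of BiP, at 70.1, 75.3, 57.1 and 85.2. Hsp90b1 (GRP94), the ER HSP90, ranked lower, at 60.9, 61.2, 37.5 and 61.6 after alignment. Dnajb9 (ERdj4), which hands unfolded protein to degradation, was the only ER gene among the 10 brightest as placed, at 79.3 on the SP scan, and its mean after alignment was 61.9 ± 15.2 (SD, n = 3). Dnajb11 (ERdj3) came to 62.0 ± 15.5 (SD, n = 4) after alignment and had no block in register as placed. Dnajc10 (ERdj5), an ER reductase with a J domain, was at 35.6 ± 25.2 (SD, n = 4), close to Dnajc14 at 35.5 ± 19.1, and Hspa13, an HSP70 of the microsomes, was at 44.7 ± 2.59.

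Mitochondrial members were led by the chaperonin of the matrix. Hspd1 (HSP60) had 1 probe and ranked at 86.5 on amodiaquine array 1, 58.6 on the SP scan and 84.7 on the amodiaquine+SP scan (76.6 ± 15.6, SD, n = 3). Its partner Hspe1 was not among the named probes. Dnaja3 (Tid1), the J-domain partner of mitochondrial HSP70, ranked at 66.9, 92.2, 68.7 and 64.9 in the 4 scans. On array 2 its bright probe 1 was the only one in register, and that probe ranked between 86.6 and 95.4 in all 8 scan and dye combinations. Hspa9 (mortalin), the HSP70 of the matrix and motor of protein import, ranked at 75.1 on the SP scan and 67.8 on the amodiaquine+SP scan as placed. After alignment, it ranked at 95.4 on amodiaquine array 1 from probe 2 alone and at 27.9 on array 2 from probe 1 alone. Its values over scans spread more widely than those of the other mitochondrial genes, but the amodiaquine arrays shared no probe of it. Dnajc15, a regulator of the import motor, came to 63.6 ± 17.6 (SD, n = 3) and Dnajc11 to 55.7 ± 22.1 (SD, n = 4) after alignment. Dnajc30 was the dimmest mitochondrial member, at 26.8 ± 14.0 (SD, n = 4) after alignment.

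The heat shock element was searched on both strands as 3 alternating units, GAA, TTC and GAA or TTC, GAA and TTC, with 2 bases of any kind between units. It was found in 5 of 53 member windows (9.43%), for the genes Hspd1, Hsph1 and Dnajb6, and in 0.603% of all windows. Both windows of Hsph1 and both of Dnajb6 held it, and 1 of 2 windows of Hspd1. Hspa8, Hsp90aa1, Hspa9, Cct4, Dnajc2, Dnajc11, Dnajc30 and Hspa13 had no window and could not be searched. No ER window held the heat shock element, and the ER element was in no cytosolic or mitochondrial window. The windows are shown for Hspd1 (chr1:55087883-55088182, minus strand), Hsph1 (chr5:149636287-149636586, minus strand) and Dnajb6 (chr5:29735648-29735947, plus strand), with the element in capitals.
Hspd1: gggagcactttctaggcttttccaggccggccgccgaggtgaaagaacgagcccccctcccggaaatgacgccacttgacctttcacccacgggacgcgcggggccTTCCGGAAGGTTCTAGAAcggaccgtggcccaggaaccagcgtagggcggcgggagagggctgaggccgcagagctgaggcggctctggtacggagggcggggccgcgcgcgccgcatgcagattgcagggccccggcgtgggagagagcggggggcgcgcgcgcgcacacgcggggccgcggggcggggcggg
Hsph1: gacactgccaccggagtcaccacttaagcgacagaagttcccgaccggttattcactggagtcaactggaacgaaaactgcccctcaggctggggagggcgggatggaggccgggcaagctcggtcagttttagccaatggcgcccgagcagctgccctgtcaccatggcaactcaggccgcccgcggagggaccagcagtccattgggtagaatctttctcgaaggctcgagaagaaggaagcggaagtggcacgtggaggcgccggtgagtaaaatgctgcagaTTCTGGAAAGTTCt
Dnajb6: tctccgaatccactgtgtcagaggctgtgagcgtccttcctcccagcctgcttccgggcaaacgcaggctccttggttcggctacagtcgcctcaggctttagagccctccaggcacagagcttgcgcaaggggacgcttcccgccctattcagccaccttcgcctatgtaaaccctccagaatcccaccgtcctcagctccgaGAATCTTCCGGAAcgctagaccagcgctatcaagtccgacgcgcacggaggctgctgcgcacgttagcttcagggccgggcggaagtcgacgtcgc
Hspd1 held 2 overlapping matches that began 144 and 139 bases before the start site. The match of Hsph1 began 36 bases after its start and that of Dnajb6 46 bases before. By brightness these 3 genes were unlike: mean ranks after alignment were 76.5 for Hspd1, 69.3 for Hsph1 and 40.0 for Dnajb6.

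Between compartments the order of brightness as placed was mitochondrial, ER, cytosolic by the median of gene means, at 67.6 (6 genes), 60.1 (6 genes with a value) and 51.7 (29 genes), beside 46.5 for all 7999 named genes with a value. After alignment, the medians were 65.0 (6 genes), 58.6 (8), 53.8 (30) and 47.0 (9107). Genes above the median of all named genes numbered 5 of 6 mitochondrial, 4 of 6 ER and 19 of 29 cytosolic members as placed. Taken within each scan and dye, the mitochondrial median exceeded the cytosolic one in 7 of 8 combinations, by 10.0 ± 6.56 points (SD). After alignment, that held in 6 of 8 with a mean difference of 1.80 ± 20.5, so the gap was smaller than its spread. The ER median exceeded the cytosolic median in 2 of 8 combinations as placed and 4 of 8 after alignment, against the order of the gene means. As placed, mitochondrial medians rested on 4, 2, 6 and 5 genes and ER medians on 2, 3, 6 and 4. The order is amodiaquine arrays 1 and 2, SP and amodiaquine+SP. The 8 combinations were 2 dyes of the same 4 scans and drew on the same few genes, so they were not independent repeats. In Cy5 only, the ER median of gene means (55.4) lay below the cytosolic one (61.2). The quartiles of the cytosolic genes as placed were 42.3 and 78.0, a spread wider than any difference between the compartment medians.

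Probes of one gene often disagreed. Cct3, the gamma subunit of TRiC, had 8 probes. Probes 6, 7 and 8, in blocks 29, 30 and 42, ranked between 91.3 and 98.2 in every scan and dye in which they were in register after alignment. Probes 1 to 5 of Cct3 ranked between 12.7 and 80.2. The same held for Ptges3, whose probes had mean ranks of 96.3 and 35.5, and for Cct5, another TRiC subunit, at 93.1, 51.1 and 35.0. Dnajc3 had a probe at 98.4 beside probes at 56.4 and 51.6, while the probes of Hsp90b1 lay at 54.0 and 56.5. Over the 71 member probes of genes with more than 1, a probe's mean rank and the mean of its gene's other probes had r = 0.29. Over all 9556 such named probes r was 0.12, and over the 146 named through a pair of clone-end sequences it was 0.66, while over the 8 member probes named that way (3 genes) it was 0.25. These are descriptions over probes that share arrays and block positions. Whether each named spot carried DNA of its gene was not tested.

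**Figure D2:**
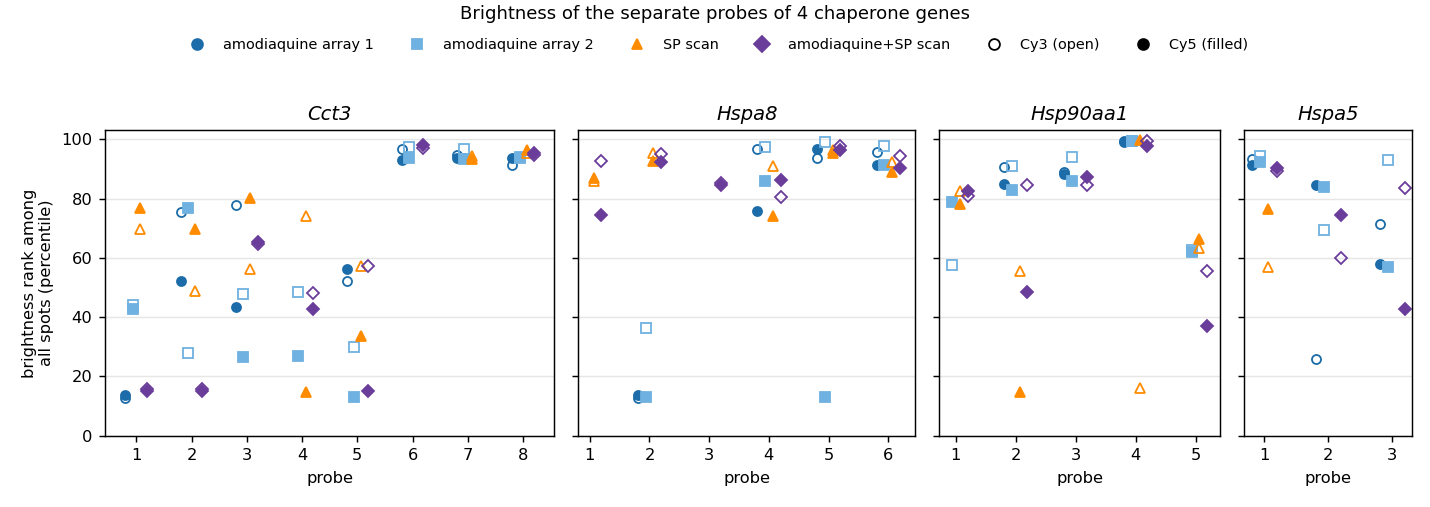
Brightness rank (percentile among all spots) of each probe of Cct3, Hspa8, Hsp90aa1 and Hspa5 in Cy3 (open) and Cy5 (filled) of the 4 scans, after alignment. Cct3 splits into probes 1 to 5, at 12.7 to 80.2, and probes 6 to 8, all above 91. Points at ranks of 12.0 to 16.0 are dyes read at or under background after alignment. For Hsp90aa1 probe 4 in Cy3 of the SP scan, that reading is of the neighbouring position, and the spot as placed was bright.

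Amodiaquine was compared with vehicle on the array pair labelled as a dye swap, with ratios turned to treated over vehicle by those labels. Left unturned, the log ratios of both arrays had r = 0.52 over the 905 probes tested. A dye preference of each probe and a wrong dye label on 1 array cannot be told apart, and every turned ratio below holds only if the labels do. Tested were the probes in register on both arrays with a signal-to-noise ratio of at least 2 in 1 dye or more on both. Among them were 6 member probes for 5 genes. limma with Benjamini-Hochberg adjustment called none of the 905 probes (0.0%), and 7 (0.773%) had an unadjusted p under 0.05, with no member among them. Dnaja3 probe 1 was the only member probe above background in both dyes on both arrays. Its background-corrected intensities were 4006 in Cy3 and 5486 in Cy5 on array 1 and 1731 and 7902 on array 2. Turned to treated over vehicle, its log2 ratios were -0.08 and 0.48, a mean of 0.20 ± 0.44 (SE; limma adjusted p = 0.99985). With loess within blocks the arrays thus differed in sign, and the mean was smaller than its error. With loess over the whole array, Cy5 over Cy3 was -0.56 on array 1 and 1.37 on array 2. The authors' log ratios gave -0.50 and 1.01. Turned by the labels, both arrays lay below 0 under these scalings, so the sign on array 2 depended on the normalisation.

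The ratio of Hspa8 probe 5 has no measured size on array 2, since its Cy5 signal there was not above background. The fitted values were -0.95 on array 1 and 4.88 on array 2, a mean of 1.96 ± 1.60 (SE; limma adjusted p = 0.99985), from which no size is read. On array 2 its Cy3 foreground was 14659 over a background of 833 (rank 99.1), whereas its Cy5 foreground of 2766 lay under a local background of 4613, where the array's median Cy5 background was 1017. Its Cy5 ranks on the other 3 scans were 95.4 to 96.8. Probe 4 gave -2.59 and 2.15, a mean of -0.22 ± 1.32 (SE), with opposite signs on the arrays, and its Cy5 signal on array 1 had a signal-to-noise ratio of 0.459. Cytosolic members Dnaja1 (-0.40 and -0.12, mean -0.26 ± 0.42), Dnajb13, a ciliary radial spoke protein (-0.80 and 0.32, mean -0.24 ± 0.51) and Hsp90aa1 probe 2 (-0.37 and 0.35, mean -0.01 ± 0.46) were likewise within their SE. With loess within blocks, only Dnaja1 had the same sign on both arrays.

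No member probe was 1.5-fold higher on both arrays (0.773% of all probes tested were) and none was 1.5-fold lower on both (1.1%). The median of the 6 turned log2 ratios was -0.11, from medians of -0.60 on array 1 and 0.42 on array 2, beside -0.04 over all 905. After alignment, 2529 probes were tested, of which limma called none (0.0%) and 28 (1.11%) had an unadjusted p under 0.05. The 20 member probes among them, for 11 genes, had a median of -0.03 and a range of -0.46 to 1.96, whose upper end is Hspa8 probe 5. On array 1, Hspa5 probe 3 and Hsp90aa1 probe 3 passed in Cy3 alone, through a background recorded as 0. The aligned set was not refitted without such spots. None of the 20 was 1.5-fold higher on both arrays (0.554%) or lower on both (1.27%). Of these 20, 3 had the same sign on both arrays after turning, a share that was 22.8% over all probes. The 3 were Dnaja1, Hsp90aa1 probe 3 (0.25 and 0.69) and Tcp1 probe 1 (0.08 and 0.30), each with a mean under its SE (0.53 to 0.54).

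Read as Cy5 over Cy3, without turning, the arrays resembled each other more. Hspa8 probe 4 was at -2.59 and -2.15, probe 6 at -0.74 and -0.90. Cct3 probes 6 and 7 were at -0.78 and -0.68 and at -0.33 and -0.45, whereas Cct3 probe 8 was at 0.41 and 0.50 and Dnajc3 probe 2 at 0.72 and 0.57. Each of these probes had the same sign of Cy5 over Cy3 on both arrays, which are labelled as a dye swap. A dye preference and a wrong dye label cannot be told apart in these values. Over the 20 member probes after alignment, the unturned ratios of the arrays had r = 0.64, and over all 2529 probes r = 0.56, as a description across probes. As placed, none of the 6 member probes was 1.5-fold higher in Cy5 on both arrays (8.73% of all probes) and 2 were lower (11.3%), Hspa8 probes 4 and 5. After alignment, 1 of 20 was higher on both, Cct5 probe 3 (8.98%), and 4 were lower (13.8%), Cct3 probe 6 and Hspa8 probes 4, 5 and 6.

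**Figure D3:**
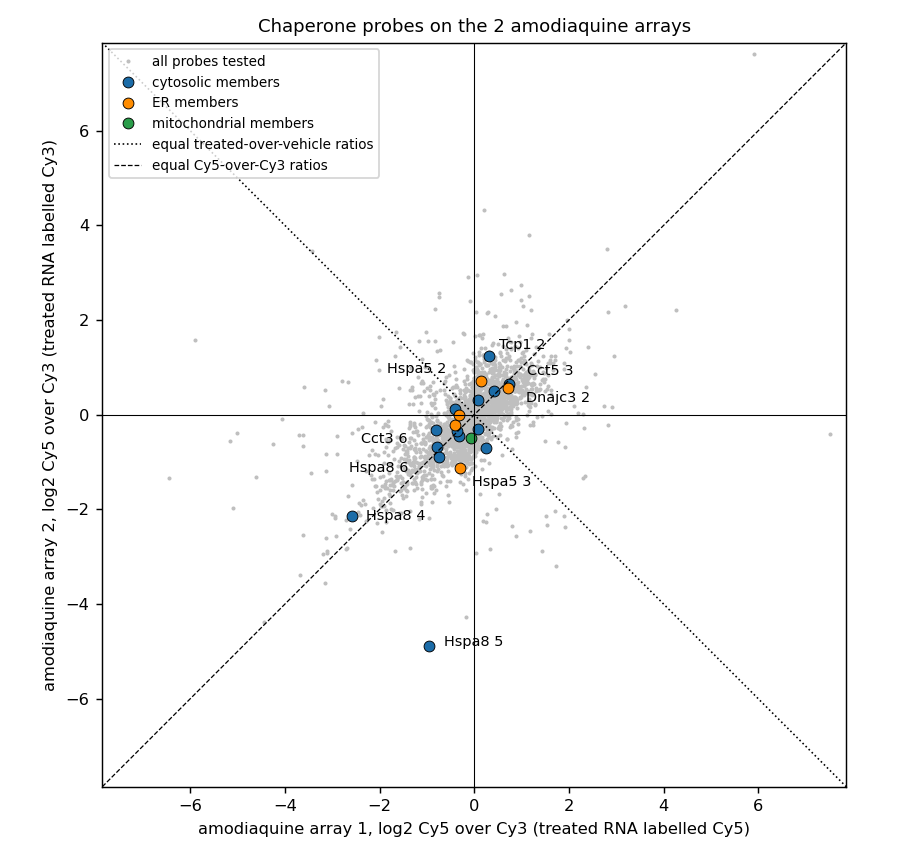
Log2 Cy5 over Cy3 of the 20 member probes (large points, by compartment) and of all 2529 probes tested (grey) on amodiaquine array 1 (treated RNA labelled Cy5) against array 2 (treated RNA labelled Cy3), after alignment. The dashed line marks equal Cy5 over Cy3 ratios and the dotted line equal treated over vehicle ratios; 3 of the 20 members have the same sign after turning, and Hspa8 probe 5 lies far below both lines.

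On the SP scan, 11 member probes for 9 genes were above background in both dyes, with a median log2 Cy5 over Cy3 of 0.15 beside 0.07 over all 1633 probes. None was 1.5-fold higher in Cy5 (5.33% of all probes) and 1 was 1.5-fold lower (15.3%). That one was Hspa8 probe 2, at -0.84. Cytosolic members ranged from -0.84 to 0.39 around a median of 0.28, with Cct6a at 0.28, Ptges3 at 0.33, and Cct3 probes 7 and 8 at -0.33 and 0.39. The mitochondrial values were -0.42 for Dnaja3, -0.13 for Hspa9 probe 2 and 0.48 for probe 3 of Dnajc11, a mitochondrial membrane J protein. That Dnajc11 probe ranked at 95.0 in Cy3 and 96.4 in Cy5 on this scan. It was at or under background in both dyes on amodiaquine array 1 and on the amodiaquine+SP scan, where it was also in register. The ER gave Dnajc3 alone, at 0.15. After alignment, the 11 probes were the same in number, with none higher (5.43%) and 1 lower (15.5%). One scan allows no test.

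The amodiaquine+SP scan gave 8 member probes for 6 genes, with a median of -0.24 beside 0.03 over all 1435 probes. After alignment it gave 15 member probes for 11 genes and a median of -0.02, beside 0.03 over 2079. None of the 8 was 1.5-fold higher in Cy5 (7.53%) and 1 was lower (10.7%), Hspa9 probe 1 at -1.47. After alignment, none of the 15 was higher (7.31%) and 2 were lower (11.3%), since Hsp90aa1 probe 4 joined it at -1.64. The other reading of this same scan gave -0.11 for Hsp90aa1 probe 4, so that value depended on where the grid lay. For the other 10 member probes compared between both readings of the scan, the difference was smaller, and the median over the 11 was 0.19. On the SP scan, 5 member probes could be compared in this way and differed by 0.02 to 0.10.

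Across scans, several members kept 1 sign. All 9 Hspa8 values, from 4 probes and all 4 scans, lay below 0 after alignment, between -2.15 and -0.34. As placed, 8 of 8 lay below 0, and 7 of 8 with loess over the whole array or with the authors' deposited log ratios. The exception was probe 5 on amodiaquine array 1, at 0.91 and 1.06 under those scalings. It was the only Hspa8 value from that array as placed, so the sign there depended on the normalisation. With loess within blocks after alignment, Tcp1 probe 2 lay at 0.30, 0.33 and 0.33 on amodiaquine array 1, the SP scan and the amodiaquine+SP scan. The other reading of the amodiaquine+SP scan gave 0.68 for this probe. As placed, the same scan gave 0.20 with loess over the whole array and 0.87 with background subtracted. The sign of Tcp1 probe 2 thus held, but its size on that scan depended on the grid and the scaling. Dnaja3 probe 1 lay below 0 in all 3 scans with a value, with loess within blocks. Of 16 member probes with values in 2 scans or more, 11 had 1 sign throughout (68.8%), where 71.0% of all 1435 such named probes did. The members' share was thus near that of the whole array.

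**Figure D4:**
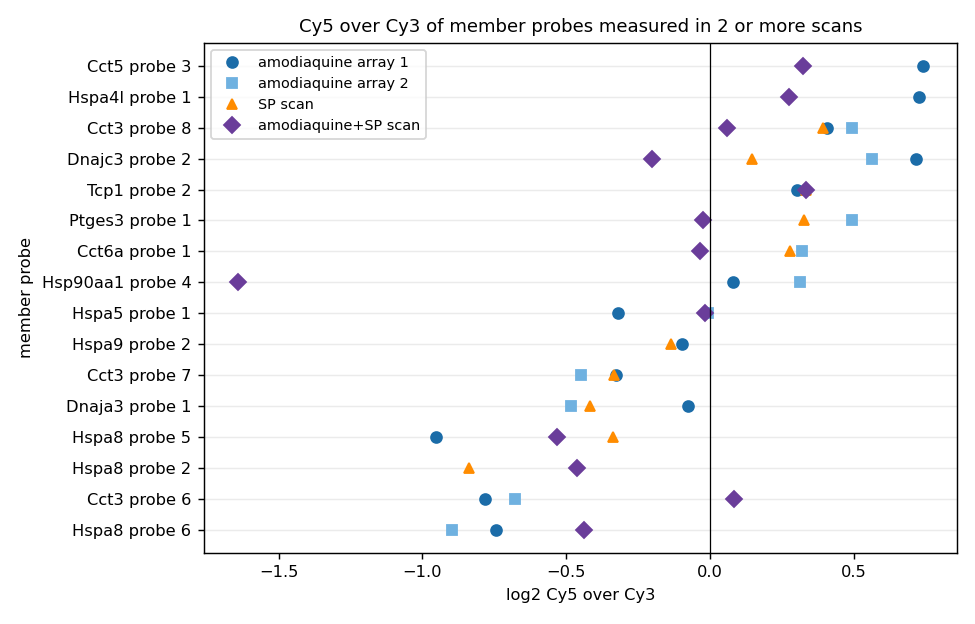
Log2 Cy5 over Cy3 of the 16 member probes above background in both dyes in 2 scans or more, after alignment; points are scans, and probes are ordered by their median. Hspa8 probes lie below 0 in every scan, Tcp1 probe 2 near 0.3, and Hsp90aa1 probe 4 falls to -1.64 in the amodiaquine+SP scan alone.

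A few bright member spots had signal in 1 dye only. After alignment, 4 member spots ranked at 90 or above in one dye while the other dye was at or under its background. They were Hspa8 probe 5 and Dnajc11 probe 3 on amodiaquine array 2 and Hsp90aa1 probe 4 and Hspa9 probe 1 on the SP scan. In 3 of them the dim dye was also at 0 as placed. The exception was Hsp90aa1 probe 4, whose Cy3 foreground on the SP scan was 32235 over a background of 1678 as placed (signal-to-noise ratio 26.3) and 1656 over 1691 after the Cy3 block was moved by 1 column, so the low Cy3 value is that of the neighbouring position read after the move. Its Cy5 foreground there was 50402 over 691, and its Cy3 ranks were 99.1 to 99.4 on the other 3 scans. Such spots were 2 of 20 bright member spots on amodiaquine array 2 and 2 of 16 on the SP scan, beside 4.21% and 2.91% of bright named spots. Neither amodiaquine array 1 nor the amodiaquine+SP scan had one among the members.

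Genes that work with the members, but lie outside the symbol rule, were taken from 3 lists, and their ranks are given as placed. Co-chaperones and heat shock factors (27 of 32 listed genes on the array) had a median rank of 51.2. This list was led by Bag3 at 96.7, Serpinh1 at 84.8 and Fkbp4 at 69.6, of which Serpinh1 is a collagen chaperone of the ER. ER folding and unfolded protein response genes (20 of 30) had a median of 46.4, led by the disulfide isomerase P4hb at 81.8, the lectin chaperone Canx at 75.9 and Calr at 73.7. Mitochondrial import, folding and proteolysis genes (19 of 22) had a median of 54.1, led by the protease Clpp at 89.4, Timm13 at 83.1 and Pmpcb at 82.0. After alignment the order differed. Serpinh1 (84.1) stood above Bag3 (75.5), and genes without a rank as placed joined: Sgta (73.6) above Fkbp4 (67.3), Atf4 (78.2) at the head of the ER list and Timm8b (81.7) above Timm13 (68.9). For amodiaquine after alignment, limma called none of the 6, 3 and 4 probes tested in these lists. Of the 6 co-chaperone probes, 5 had a mean above 0 and 1 below, with Fkbp4 at 0.14 and 0.64 on the 2 arrays (mean 0.39 ± 0.54, SE). Canx was tested with 2 probes, at means of -0.25 and 0.20, and no gene of the lists was 1.5-fold higher, or 1.5-fold lower, on both arrays at a time.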

How the data were processed

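Kidney RNA was hybridised to 2-colour cDNA arrays of 48 blocks. Per the labels, images were read with ImageQuant 5.0 and ArrayVision 8.0, and the authors' LOWESS-normalised log ratios came from Avadis 4. The files deposited by the authors hold foreground and background intensity per dye, a signal-to-noise ratio and these log2 ratios, whose slope on log2 Cy5 over Cy3 was 0.959 to 0.994, or -0.993 to -0.970 in the second files. Probe names were placed through a reordered block layout. Ribosomal protein probes had a mean rank of 0.815 (as a fraction) there and of 0.559 by spot number.

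Intensities were corrected with normexp (offset 50), normalised by loess within blocks and fitted in limma 3.58.1 (R 4.3.3) with 1 residual degree of freedom. The Cy3 background was recorded as 0 at 7079 spots of amodiaquine array 1, whose signal-to-noise ratio is then unbounded. The SP and amodiaquine+SP scans were not tested. Named in full were members above background in both dyes on both amodiaquine arrays and the 10 of highest mean brightness rank, and for each other list the 3 of highest rank. Other genes were named after their values were seen. Members and lists were chosen with earlier results of these data known. Alternatives covered background, normalisation, filters, grid placement, probe names and left-out scans. Promoter motifs were matched as letters.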

Additional observations from a re-analysis of the deposited data

How the results depend on the processing

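With background subtracted, 1 of 839 probes passed for amodiaquine (adjusted p = 0.00365), and with the authors' deposited log ratios 1 of 839 passed (adjusted p = 0.0122). Both were the same probe for Akt1s1, which is no member. The count was 0 with whole-array loess, all blocks, no filter, zero backgrounds not counted as above background, blocks aligned, and all 6 files with a dye term (smallest adjusted p from 0.161 to 0.9999). The fit to all 6 files entered both readings of the SP scan, and of the amodiaquine+SP scan, as separate arrays. Its error therefore rests partly on repeated readings of 1 scan. Dnaja3 probe 1 changed sign to -0.96 with whole-array loess and to -0.76 with the authors' ratios. Hsp90aa1 probe 2 changed sign to 0.029 with background subtracted and to 0.13 with the authors' ratios, and Dnaja1 to 0.0089 with the latter; the cause was not tested. The members' median turned ratio was 0.42 without replicate 1 and -0.60 without replicate 2, and leaving out either array gives no test of the called count. The median Cy5 over Cy3 ranged from 0.07 to 0.17 on the SP scan and from -0.31 to -0.02 on the amodiaquine+SP scan, with -0.60 from 1 probe in the other file of that scan. The cytosolic brightness rank was 61.2 in Cy5 only, above ER at 55.4, and with names by spot number the mitochondrial one was 45.5, below ER at 56.0 and beside 45.6 for cytosolic; the cause was not tested. Leaving out 1 scan gave 48.2 to 54.1 for cytosolic, 49.4 to 60.1 for ER and 65.3 to 73.6 for mitochondrial members. As placed, the other SP file had no member probe in register with both dyes above background and gave no median. No paired analysis was possible because each ratio already sets treated against vehicle RNA within 1 array. At most 2 arrays per treatment and few spots above background limit what a change in a member would have to be to be seen.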
